A study of Mus musculus with 6 samples.

Results

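The genes described are the potassium channel genes of the mouse, taken as every gene whose symbol starts with Kcn, a lower-case letter and further digits or letters. They hold pore-forming subunits and the auxiliary subunits named after them. The rule leaves out 4 antisense transcripts (Kcnab3os, Kcnd3os, Kcnmb4os1 and Kcnmb4os2) and 1 gene of the Kcnh group. It found 94 genes among the 48795 Ensembl identifiers of the deposited table. Of these, 80 had enough reads to be tested. By symbol, 92 belong to channel subunit families. Outside them are Kcnrg, a regulator of Kv channels, and Kcnq1ot1, a long noncoding RNA transcribed antisense to Kcnq1 that the rule admits by its letters.

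Polyadenylated RNA was sequenced from dissected hippocampi of mice on a C57BL/6J background, with 3 libraries per group. The double knockout (KO) carried floxed Kdm1a and Kdm5c with the CamKIIα-CreERT2 transgene, a recombinase that is active only after tamoxifen and is expressed in principal neurons of the forebrain. Recombination removes exons 5 and 6 of Kdm1a and exons 11 and 12 of Kdm5c, which encode demethylases of lysine 4 of histone H3. The wild-type (WT) group was also given tamoxifen, and the mice were 2 to 3 months old when it was given. Whether WT mice carried the recombinase, and how long after tamoxifen tissue was taken, is not stated in the labels. By that description interneurons, glia and vascular cells of the KO keep both genes. In such bulk RNA, fewer cells of a type and less RNA per cell cannot be told apart. The labels do not say whether each library is from its own animal. The p-values therefore describe the spread between these libraries, which may be technical.

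Potassium channels let potassium leave or enter the cell along its gradient and so set the resting potential, the shape of the action potential and the rate of firing. Voltage-gated (Kv) channels open on depolarisation, and their pore is built from 4 alpha subunits, some of which only work when mixed with others. Inward rectifiers (Kir) and two-pore-domain (K2P) channels carry current near rest, and calcium- or sodium-activated channels (BK, SK, Slo2) follow ion entry during firing. In hippocampal pyramidal neurons Kv2, Kv4, Kv7 and SK currents are the best known, and in astrocytes the inward rectifier encoded by Kcnj10.

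Libraries held 19309576 to 19700249 gene counts. On the first principal component, which held 54.5% of the variance, WT libraries lay between -28.4 and -22.9 and KO libraries between 23.9 and 26.4. Kdm1a was at 73.7 ± 3.95 CPM in WT and 38.6 ± 1.29 CPM in KO (n = 3 each, mean ± SD) and Kdm5c 79.5 ± 2.97 CPM in WT and 70.6 ± 4.67 CPM in KO. CPM are each gene's counts scaled to a common library size (edgeR's cpm with TMM factors). Kdm1a fell (log2 fold change -0.93, SE 0.0651, adjusted p = 4.32e-07 by edgeR's quasi-likelihood test, Benjamini-Hochberg adjusted), and Kdm5c did not pass the threshold (log2 fold change -0.17, SE 0.0640, edgeR Benjamini-Hochberg adjusted p = 0.143). These are whole-gene counts and check the deleted exons only in part. Markers of the principal neurons were present: the 10 listed for pyramidal and granule cells summed to 965 to 966 CPM in WT and 941 to 1039.7 CPM in KO, and 3 of them rose and 1 fell. Among lists of other cell types, each of 10 genes, summed astrocyte markers were 5549 to 5787 CPM in WT and 6154 to 6249 CPM in KO, and those of oligodendrocytes and their precursors 5137 to 5550.5 CPM in WT and 5713 to 6426 CPM in KO, both without overlap, although 1 of the 10 genes rose in each (Gfap and Mbp). Markers of neighbouring brain regions summed to 158 to 163 CPM in WT and 181 to 183 CPM in KO, again without overlap. Of the 9 tested, Prkcd, Ppp1r1b and Rgs9 rose, 5 lay below 0 on the log2 fold change scale, and the list's median was -0.06. Sums overlapped for microglia (347 to 402 CPM in WT and 398 to 456 CPM in KO), vascular cells (401 to 414 CPM in WT and 412 to 489 CPM in KO), interneurons (1415 to 1493 CPM in WT and 1454 to 1511 CPM in KO) and choroid plexus with ependyma (23.3 to 41.8 CPM in WT and 24.9 to 81.6 CPM in KO). All 10 microglial and all 10 vascular markers still lay above 0 on the log2 fold change scale (median 0.21 in each list). Past the threshold were 0 microglial markers and 1 vascular marker. Of the interneuron markers 4 lay above 0 and 6 below, and of the choroid plexus and ependyma markers 8 above and 1 below. The part of these differences in the results was not tested, apart from the marker values given beside single genes.

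The hippocampus of the KO expressed 11 potassium channel genes more and 4 less than that of WT, and these 15 genes were spread over 9 families. The 11 were Kcna5, Kcna6, Kcna7, Kcnab3, Kcnc4, Kcnd1, Kcng1, Kcns1, Kcnj4, Kcnj14 and Kcnk9, and the 4 were Kcnj9, Kcnn1, Kcnq5 and Kcnv1. The threshold was an adjusted p of 0.05 over all 16861 genes tested. The 15 are 18.8% of the 80 tested channel genes, and 6.95% of all tested genes passed. By direction, 13.8% of the channel genes rose against 5.90% of all genes, and 5.00% fell against 1.05%. The median log2 fold change was 0.04 over the 80 and -0.01 over all genes. All 3 KO libraries lay above all 3 WT libraries for 16 of the 80 and below them for 10. Over all genes such separation was found in 14.0% and 11.2%, and in 25.2% in either direction.

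Summed over the 94 genes, levels overlapped between groups, at 5593 to 5831 CPM in WT and 5550.2 to 5604 CPM in KO. Most of the genes that changed were of low or middle level. Of the 18 with a WT mean of at least 100 CPM only Kcnj9 passed the threshold, while 10 of the 34 between 10 and 100 CPM did. Compared per kilobase of exon, the most abundant channel gene in WT was Kcnab2, a Kv beta subunit (133 CPM per kilobase), followed by Kcnip2, a calcium-binding partner of Kv4 (86.7 CPM per kilobase). The WT ranges of both genes did not overlap. They were 123 to 144 and 73.9 to 94.0 CPM per kilobase. Neither passed the threshold (log2 fold changes -0.10 and -0.17). Length here is the union of all annotated exons, so genes with many rarely used exons are placed too low.

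**Figure D1:**
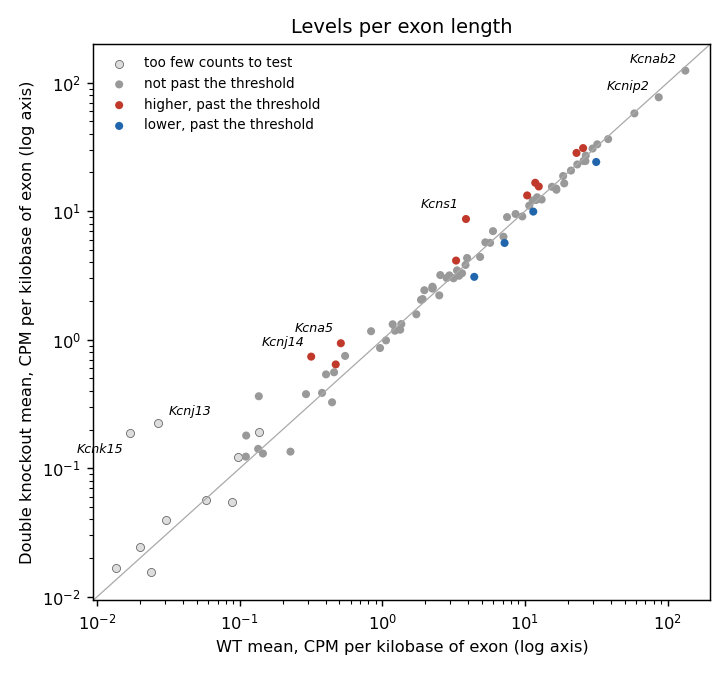
Mean level of each potassium channel gene in WT (x axis) and in the double knockout (y axis), both in CPM per kilobase of exon on log axes, for genes with reads in both groups. Points on the grey line are equal in both groups. Kcns1 lies above the line at a middle level, and Kcnab2 and Kcnip2 at the top end lie close to it.

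Of the Kv1 alpha subunits, relatives of the fly Shaker channel that hold down excitability in axons, 3 of 7 tested rose and 0 fell. Kcna7, known from skeletal muscle and heart, went from no read to a low level. It had 0, 0 and 0 reads in WT and 21, 13 and 22 in KO (ENSMUSG00000038201, chromosome 7, 45405653 to 45409763, plus strand, GRCm38). Against a floor of 3 counts over the WT libraries it was at least 18.7-fold higher in KO (edgeR Benjamini-Hochberg adjusted p = 2.15e-04). The KO mean was still only 0.952 ± 0.246 CPM, or 0.436 CPM per kilobase. Kcna7 passed the filter on low counts only through its KO libraries. None of the 13 tested genes within 100 kb of it passed the threshold.

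Kcna5 and Kcna6 lie with Kcna1 in a cluster on chromosome 6, and Kcna1 did not pass. Kcna6, a Kv1 subunit of axons, measured 82.4, 70.2 and 70.4 CPM in WT and 94.8, 92.3 and 90.5 CPM in KO. Every KO library was above every WT library, the lowest WT values being replicates 2 and 3 (log2 fold change 0.32, SE 0.0692, edgeR Benjamini-Hochberg adjusted p = 0.0115). Its call was lost without KO replicate 1 (edgeR adjusted p = 0.0596). The antisense gene Gm26673 overlaps Kcna6 and had 26 counts over WT and 12 over KO. Kcna5, best known from heart and vascular muscle, was scarce, at 1.63, 1.62 and 1.14 CPM in WT and 2.80, 2.16 and 3.09 CPM in KO. The KO libraries lay above all WT libraries. It passed (log2 fold change 0.87, SE 0.224, edgeR Benjamini-Hochberg adjusted p = 0.0300), but not in DESeq2 (adjusted p = 0.0728) or in edgeR on leaving out any library but KO replicate 2 (adjusted p between 0.0570 and 0.153). Of 10 vascular markers Pdgfrb, of mural cells, rose (28.8 to 30.1 CPM in WT and 31.8 to 43.0 CPM in KO, log2 fold change 0.37, SE 0.0971, edgeR Benjamini-Hochberg adjusted p = 0.0337). The smooth muscle markers Acta2 and Myh11 overlapped between groups at log2 fold changes of 0.45 and 0.41, and all 10 vascular markers lay above 0. Their part in the Kcna5 result was not tested. Kcna1, 61945 bases from Kcna6, overlapped between groups (48.1 to 54.8 CPM in WT and 49.9 to 56.0 CPM in KO, log2 fold change 0.04, SE 0.0705). Whether Kcna1 and Kcna6 responded differently was not tested.

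The most abundant Kv1 subunit per kilobase, Kcna2, was 184 to 207 CPM in WT and 171 to 189.7 CPM in KO and did not pass (log2 fold change -0.14, SE 0.0650). Kcna4 and Kcna3 also overlapped between groups (21.0 to 27.7 CPM in WT and 18.5 to 23.9 CPM in KO, and 1.41 to 1.72 CPM in WT and 1.52 to 2.65 CPM in KO). Kv beta subunits bind Kv1 channels in the cytoplasm, and some of them speed channel inactivation. Kcnab3 rose in KO, with means of 29.7 ± 3.57 and 38.0 ± 0.450 CPM in WT and KO (± SD, each n = 3, log2 fold change 0.36, SE 0.0863, edgeR Benjamini-Hochberg adjusted p = 0.0218). Its libraries were at 31.2, 32.2 and 25.6 CPM in WT and 37.6, 37.9 and 38.5 CPM in KO, so the KO values were close together and the lowest WT value was that of replicate 3. The call was lost without each KO library in turn (edgeR adjusted p between 0.0622 and 0.103) and after correction for GC content (0.0581). The antisense gene Kcnab3os overlaps Kcnab3 and held only 19 counts over WT and 26 over KO. Kcnab1 lay lower in every KO library without passing (139 to 147 CPM in WT and 117 to 132 CPM in KO, log2 fold change -0.18, SE 0.0628), and Kcnab2 overlapped (686 to 802 CPM in WT and 658 to 711 CPM in KO).

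**Figure D2:**
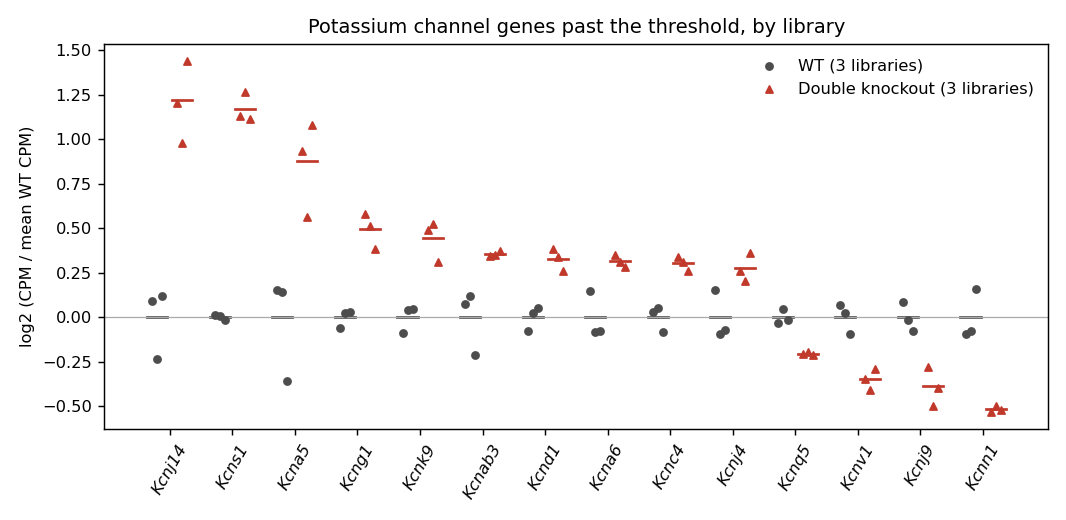
Level of each potassium channel gene past the threshold in each library, as log2 of its CPM over the mean WT CPM (y axis), by gene (x axis). Dots are WT libraries, triangles are double knockout libraries and short lines are group means. Kcna7 is left out because WT had no read. For each of the 14 genes shown the groups do not overlap, and for most the distance between groups is under 0.5.

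The modifier subunits of the Kv5, Kv6, Kv8 and Kv9 groups do not form channels alone. They join Kv2 subunits and change when these open and close. Among the 8 tested, 2 rose and 1 fell. Kcns1, a Kv9 subunit studied in sensory neurons, had the smallest p of all channel genes (ENSMUSG00000040164, chromosome 2, 164163619 to 164171113, minus strand). It measured 10.6, 10.5 and 10.4 CPM in WT and 22.9, 25.2 and 22.6 CPM in KO. The 3 WT values lay close together and every KO value was far above them (log2 fold change 1.17, SE 0.0894, edgeR Benjamini-Hochberg adjusted p = 1.09e-06). Kcng1, a Kv6 subunit, measured 51.1, 54.2 and 54.4 CPM in WT and 79.5, 76.1 and 69.5 CPM in KO (log2 fold change 0.49, SE 0.0660, edgeR Benjamini-Hochberg adjusted p = 2.28e-04). Neither gene overlapped between groups. Kcnv1, a Kv8 subunit of the brain, went the other way, at 34.6, 33.5 and 30.9 CPM in WT and 26.0, 24.8 and 27.0 CPM in KO (log2 fold change -0.35, SE 0.0771, edgeR Benjamini-Hochberg adjusted p = 0.0126). It did not pass without WT replicate 1 (edgeR adjusted p = 0.0595) or KO replicate 2 (0.0684).

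The other modifier genes overlapped between groups. Kcnf1, the most abundant of them per kilobase, was 98.6 to 103 CPM in WT and 97.5 to 102 CPM in KO (log2 fold change -0.02, SE 0.0568). Kcns2 and Kcns3 were 30.1 to 33.5 CPM in WT and 29.7 to 33.8 CPM in KO, and 12.2 to 12.9 CPM in WT and 12.7 to 14.4 CPM in KO. Kcng2 and Kcng4 were 20.1 to 26.0 CPM in WT and 23.0 to 31.7 CPM in KO, and 6.63 to 7.91 CPM in WT and 7.09 to 8.22 CPM in KO. Kcnb2, a Kv2 subunit that modifiers join, was 18.6 to 21.8 CPM in WT and 15.4 to 19.8 CPM in KO (log2 fold change -0.16, SE 0.107). Summed over the 10 modifier genes, levels were 268 to 275 CPM in WT and 299.5 to 308 CPM in KO, without overlap. No p is given for this sum, because the members were chosen with results known. Of the summed modifier level most comes from Kcnf1 and Kcng1. The sum includes the called genes. From WT to KO, mean levels went from 53.2 to 75.0 CPM for Kcng1 and from 10.5 to 23.6 CPM for Kcns1. They went from 33.0 to 26.0 CPM for Kcnv1 and from 101 to 99.2 CPM for Kcnf1. A sum without the called genes was not compared.

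The stretch before the start of Kcns1 is shown because this gene had the clearest change. It is the 250 bases upstream of the RefSeq start at chr2:164171114-164171363 (GRCm38.p6, minus strand, printed 5′ to 3′ along the gene), with CG dinucleotides in capitals.
Kcns1: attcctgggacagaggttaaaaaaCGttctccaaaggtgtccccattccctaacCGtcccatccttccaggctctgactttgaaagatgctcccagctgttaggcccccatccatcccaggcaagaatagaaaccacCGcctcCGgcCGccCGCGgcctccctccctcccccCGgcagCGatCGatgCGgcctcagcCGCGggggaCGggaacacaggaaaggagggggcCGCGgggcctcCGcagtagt
The window holds 17 CG dinucleotides, most of them in the part nearest the start, against a median of 6 over 32851 such windows of all genes. Over 71 windows of channel genes not past the threshold the median was 7 and the range 0 to 43. A count this high is therefore not particular to genes that changed.

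Kv3 channels close fast and allow high firing rates, above all in parvalbumin interneurons. Of the 4 genes only Kcnc4 rose, at 86.0, 87.4 and 79.5 CPM in WT and 107, 105 and 101 CPM in KO (log2 fold change 0.30, SE 0.0606, edgeR Benjamini-Hochberg adjusted p = 0.00602). The KO values were all above the WT values. Kcnc1 and Kcnc2 lay below WT in every KO library but did not pass. They were 244 to 262 CPM in WT and 225 to 240.4 CPM in KO (log2 fold change -0.11, SE 0.0571), and 129 to 141 CPM in WT and 111 to 122 CPM in KO (log2 fold change -0.20, SE 0.0621, edgeR Benjamini-Hochberg adjusted p = 0.0802). Pvalb, the marker of those interneurons, overlapped between groups (22.3 to 33.5 CPM in WT and 25.1 to 28.1 CPM in KO).

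Kv4 channels carry the transient A-type current of dendrites. Kcnd1, the least abundant of the 3 Kv4 genes per kilobase, rose, at 16.5, 17.7 and 18.0 CPM in WT and 22.7, 22.0 and 20.8 CPM in KO (log2 fold change 0.33, SE 0.0842, edgeR Benjamini-Hochberg adjusted p = 0.0304). The KO libraries were above WT throughout, but the call was lost without WT replicate 1 or any KO library (edgeR adjusted p between 0.0640 and 0.123). Kcnd2, the main Kv4 subunit of pyramidal dendrites, was 105 to 129.6 CPM in WT and 116 to 125 CPM in KO (log2 fold change -0.01, SE 0.0770). Kcnd3 was 111 to 125 CPM in WT and 121 to 127 CPM in KO (log2 fold change 0.08, SE 0.0632). KChIPs are calcium-binding proteins that bring Kv4 to the surface, and 0 of the 4 passed (edgeR, with 0 at an unadjusted p under 0.05 and 0 in DESeq2). The most abundant, Kcnip2, was 257 to 327 CPM in WT and 246 to 279 CPM in KO (log2 fold change -0.17, SE 0.0853). It passed only without WT replicate 1, the lowest WT library (edgeR adjusted p = 0.0388). Kcnip4, next by p, was 41.3 to 51.8 CPM in WT and 44.3 to 45.0 CPM in KO (log2 fold change -0.09, SE 0.0809).

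Kv7 subunits form the M channel, which muscarinic receptors close. Of the 5 genes Kcnq5 fell, at 86.0, 90.9 and 86.9 CPM in WT and 76.3, 76.8 and 75.9 CPM in KO (log2 fold change -0.20, SE 0.0557, edgeR Benjamini-Hochberg adjusted p = 0.0414), a change of -13.2%. The groups did not overlap, but the call was lost without any library except WT replicate 3 (edgeR adjusted p between 0.0674 and 0.190), and with scaling by library size alone (0.0671). The processed pseudogene Gm7658 lies within Kcnq5 on the same strand and had 427 counts over WT and 402 over KO. Kcnq3, a main M channel subunit of the forebrain, overlapped (209 to 256 CPM in WT and 222 to 238 CPM in KO, log2 fold change 0.00, SE 0.0739). Kcnq1, mainly a cardiac and epithelial gene, stayed under 1 CPM, and Kcnq1ot1, which overlaps it on the other strand, was 12.0 to 15.9 CPM in WT and 11.7 to 12.5 CPM in KO (log2 fold change -0.16, SE 0.115). The labels do not say whether counting used strand, so the reads of these overlapping genes cannot be told apart.

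KCNE proteins are small membrane partners of Kv7 and other Kv channels. Of 3 tested 0 passed in edgeR or DESeq2, and 1 had an unadjusted p under 0.05. This was Kcne3, with 3, 6 and 5 reads in WT and 11, 11 and 16 in KO. Every KO library was above WT (log2 fold change 1.40, SE 0.416, edgeR Benjamini-Hochberg adjusted p = 0.0631). Like Kcna7, Kcne3 passed the filter on low counts only through its KO libraries. At its WT level in both groups it would not have been tested. Kcne4 was 0.816 to 1.46 CPM in WT and 1.08 to 1.63 CPM in KO (log2 fold change 0.42, SE 0.286) and Kcne1l 3.03 to 3.80 CPM in WT and 3.67 to 4.21 CPM in KO. The EAG, ERG and ELK channels (Kcnh) repolarise slowly and shape firing. In both edgeR and DESeq2 0 of the 7 included here passed, and 1 had an unadjusted p under 0.05 in edgeR. Kcnh8, with the smallest p, was 0.989 to 1.07 CPM in WT and 0.304 to 0.773 CPM in KO (log2 fold change -0.75, SE 0.338), and Kcnh6 1.41 to 2.34 CPM in WT and 2.49 to 2.80 CPM in KO (log2 fold change 0.45, SE 0.212). Kcnh1, the most abundant of the 7 per kilobase, was 67.9 to 73.1 CPM in WT and 66.0 to 67.1 CPM in KO (log2 fold change -0.07, SE 0.0576). Groups did not overlap for 5 of the 7, with 3 above and 2 below WT, where 25.2% of all tested genes did not overlap (14.0% above and 11.2% below).

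**Figure D3:**
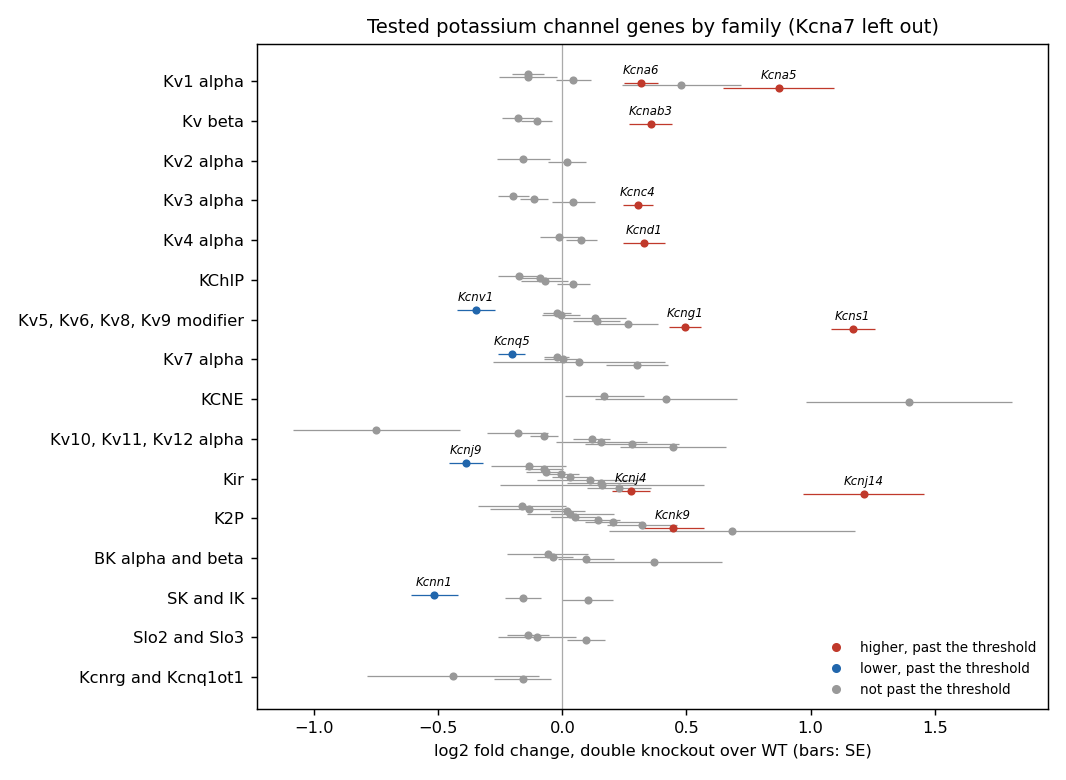
Log2 fold change of double knockout over WT (x axis, bars are SE) for 79 tested potassium channel genes in 16 families by symbol (y axis). Kcna7 is left out, since WT had no read. Genes past the threshold are named; those that rose and those that fell both occur among the Kv modifiers and the inward rectifiers.

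Among the 12 tested inward rectifiers 2 rose and 1 fell. Kcnj14, known from motor neurons of the brainstem, was scarce and rose, with 18, 14 and 18 reads in WT and 39, 33 and 46 in KO, or 0.862 ± 0.113 CPM in WT and 2.01 ± 0.317 CPM in KO (log2 fold change 1.21, SE 0.245, edgeR Benjamini-Hochberg adjusted p = 0.00659). No WT library reached the lowest KO library. Kcnj4, a strong rectifier of the forebrain, measured 61.3, 51.5 and 52.3 CPM in WT and 65.9, 63.4 and 70.6 CPM in KO (log2 fold change 0.28, SE 0.0757, edgeR Benjamini-Hochberg adjusted p = 0.0429). KO lay above WT, with WT replicate 1 only slightly below the lowest KO value. Kcnj4 did not pass without any library except WT replicate 1 (edgeR adjusted p between 0.0646 and 0.229) or after GC correction (0.127).

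Kcnj9 encodes a subunit of the GIRK channels, which G protein-coupled receptors open to quiet the cell. It fell by 23.6% (ENSMUSG00000038026, chromosome 1, 172320501 to 172329318, minus strand). Its libraries were at 144, 134 and 129 CPM in WT and 112, 95.8 and 103 CPM in KO, without overlap (log2 fold change -0.39, SE 0.0697, edgeR Benjamini-Hochberg adjusted p = 0.00285). The other GIRK subunits of the brain did not pass. Kcnj3 was 117 to 145 CPM in WT and 124 to 133 CPM in KO (log2 fold change -0.07, SE 0.0776) and Kcnj6 28.6 to 30.0 CPM in WT and 28.5 to 29.9 CPM in KO (log2 fold change -0.01, SE 0.0715), and Kcnj5 held under 1 CPM in every library. The difference in response between Kcnj9 and these genes was not tested. The noncoding gene Gm36937 overlaps Kcnj9 on the other strand and had 140 counts over WT and 119 over KO.

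Kcnj10 is the main inward rectifier of astrocytes and oligodendrocytes. It overlapped between groups (186 to 234 CPM in WT and 191 to 202 CPM in KO, log2 fold change -0.07, SE 0.0764), while the summed markers of both cell types were higher in every KO library. Its astrocyte partner Kcnj16 was 17.7 to 28.1 CPM in WT and 26.8 to 28.8 CPM in KO (log2 fold change 0.23, SE 0.128). Kcnj11 and Kcnj8 form the pores of ATP-sensitive channels, Kcnj8 mostly in pericytes, and were 40.9 to 46.8 CPM in WT and 42.4 to 46.4 CPM in KO, and 4.07 to 4.64 CPM in WT and 3.60 to 4.43 CPM in KO. Kcnj2 and Kcnj12, strong rectifiers like Kcnj4, were 10.7 to 13.4 CPM in WT and 11.8 to 16.9 CPM in KO, and 3.70 to 6.22 CPM in WT and 4.07 to 7.04 CPM in KO.

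Windows before the start of Kcnj4 and Kcnj9 are shown side by side because these inward rectifiers changed in opposite directions (25.6 and 31.6 CPM per kilobase in WT, respectively). Both are the 250 bases upstream of the RefSeq start in GRCm38.p6, on the minus strand, at chr15:79505242-79505491 and chr1:172329323-172329572, printed 5′ to 3′ with CG dinucleotides in capitals.
Kcnj4: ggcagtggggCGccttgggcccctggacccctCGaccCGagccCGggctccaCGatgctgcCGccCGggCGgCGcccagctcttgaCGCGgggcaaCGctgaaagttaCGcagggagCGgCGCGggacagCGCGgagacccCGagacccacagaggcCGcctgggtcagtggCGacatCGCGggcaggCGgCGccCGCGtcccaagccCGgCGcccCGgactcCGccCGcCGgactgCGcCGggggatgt
Kcnj9: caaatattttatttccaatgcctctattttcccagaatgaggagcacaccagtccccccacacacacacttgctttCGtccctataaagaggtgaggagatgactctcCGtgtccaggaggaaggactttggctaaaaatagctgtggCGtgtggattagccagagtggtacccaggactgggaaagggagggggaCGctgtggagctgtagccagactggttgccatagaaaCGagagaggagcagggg
The Kcnj4 window holds 35 CG dinucleotides and the Kcnj9 window 5. Both lie within the range of 0 to 43 over windows of channel genes not past the threshold.

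Among the 10 tested K2P channels, which carry the leak current at rest, Kcnk9 rose and 0 fell. Kcnk9 encodes the acid-sensitive TASK-3 and measured 5.45, 5.96 and 5.99 CPM in WT and 8.16, 8.35 and 7.20 CPM in KO (log2 fold change 0.45, SE 0.124, edgeR Benjamini-Hochberg adjusted p = 0.0452). No KO value reached down to WT, but the call was lost on leaving out any 1 of the 6 libraries (edgeR adjusted p between 0.0555 and 0.162) and in DESeq2 (adjusted p = 0.1098). Kcnk1, the most abundant K2P gene per kilobase, was 55.2 to 63.4 CPM in WT and 57.5 to 64.6 CPM in KO (log2 fold change 0.02, SE 0.0702), and Kcnk2, the mechanosensitive TREK-1, 36.7 to 48.8 CPM in WT and 46.3 to 48.1 CPM in KO. Kcnk13, a channel of microglia, was 7.68 to 8.33 CPM in WT and 7.75 to 11.3 CPM in KO (log2 fold change 0.32, SE 0.140), beside summed microglial markers of 347 to 402 CPM in WT and 398 to 456 CPM in KO.

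SK channels open on calcium and carry the afterhyperpolarisation that follows spikes. Kcnn1 fell, by 30.1%, the largest relative fall among the 4 genes that fell (ENSMUSG00000002908, chromosome 8, 70842049 to 70863258, minus strand). It measured 19.0, 19.2 and 22.6 CPM in WT and 14.0, 14.3 and 14.1 CPM in KO, with KO values close together and WT replicate 3 above the other WT libraries (log2 fold change -0.52, SE 0.0947, edgeR Benjamini-Hochberg adjusted p = 0.00333). The unclassified transcript A230052G05Rik overlaps Kcnn1 on the other strand and had 13 counts over WT and 5 over KO. Kcnn2, the most abundant SK gene per kilobase, overlapped by a narrow margin (49.8 to 56.4 CPM in WT and 43.5 to 49.9 CPM in KO, log2 fold change -0.16, SE 0.0732). Kcnn3 overlapped more widely (28.4 to 33.3 CPM in WT and 27.6 to 37.0 CPM in KO).

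The other ion-activated channels showed no change past the threshold. Of 4 tested BK genes 0 passed in edgeR or DESeq2, and 0 had an unadjusted p under 0.05. The BK pore gene Kcnma1 was 22.4 to 23.7 CPM in WT and 21.1 to 23.7 CPM in KO (log2 fold change -0.04, SE 0.0813), and its neuronal beta subunit Kcnmb4 9.11 to 9.66 CPM in WT and 9.28 to 11.3 CPM in KO (log2 fold change 0.10, SE 0.112). Kcnmb1, the beta subunit of smooth muscle, was 1.04 to 1.48 CPM in WT and 1.19 to 2.13 CPM in KO. Of the Slo2 and Slo3 genes, again 0 of 3 passed in either tool, with 0 at an unadjusted p under 0.05 in edgeR. Kcnt1, the sodium-activated Slack channel, was 102 to 112 CPM in WT and 108 to 129 CPM in KO (log2 fold change 0.10, SE 0.0753), and Kcnt2 lay lower in every KO library without passing (24.0 to 25.6 CPM in WT and 20.8 to 23.7 CPM in KO, log2 fold change -0.14, SE 0.0832). Kcnrg, outside the channel families, was 0.572 to 1.04 CPM in WT and 0.412 to 0.710 CPM in KO (log2 fold change -0.44, SE 0.346).

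The remaining 14 genes had too few reads to be tested: Kcna10, Kcne1, Kcne2, Kcng3, Kcnj1, Kcnj13, Kcnj15, Kcnk7, Kcnk15, Kcnk16, Kcnk18, Kcnmb3, Kcnn4 and Kcnv2. Kcnj1, the channel of the kidney tubule, and Kcnk16, of the pancreas, had 0 reads in all 6 libraries, and a count of 0 allows up to 3 reads. Reads of 3 others differed most between groups, and their ratios are given as values chosen after they were seen, with no test. Kcnk15 had 1, 0 and 1 reads in WT and 11, 9 and 2 in KO, a KO over WT ratio, corrected for library totals, of 11.0 (95% exact binomial interval 2.71 to 96.6, counting error only). With no filter on low counts Kcnk15 passed the threshold in edgeR. Kcne1, the cardiac and inner ear partner of Kcnq1, had 0, 0 and 0 reads in WT and 2, 5 and 1 in KO, at least 2.67-fold higher against the floor of 3 counts over the WT libraries. Kcnj13 had 2, 0 and 0 reads in WT and 7, 0 and 10 in KO, a ratio of 8.51 (95% exact binomial interval 2.02 to 75.9, counting error only).

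Kcnj13 is a gene of the choroid plexus, and its reads were compared with that tissue's markers. Ttr, the most abundant choroid plexus transcript, was 19.1, 5.96 and 7.23 CPM in WT and 58.9, 1.60 and 55.9 CPM in KO. Both were high in KO replicates 1 and 3 and low in KO replicate 2. The summed choroid plexus and ependyma markers were 81.6, 24.9 and 79.5 CPM in the KO libraries. Without Ttr they were 22.7, 23.3 and 23.6 CPM, so Ttr made up the difference between these sums. The flat remainder does not show that only Ttr differed, because other markers differed in opposite directions between these libraries. Single markers differed in pattern. Clic6 (2.14, 0.824 and 2.03 CPM), Aqp1 (0.765, 0.206 and 0.964 CPM) and Prlr (4.33, 3.25 and 3.86 CPM) were also lowest in KO replicate 2. So were Otx2 (0.867, 0.618 and 0.710 CPM) and Slc4a5 (0.255, 0.0515 and 0.406 CPM). Foxj1 (7.95, 10.7 and 8.12 CPM) and Ccdc153 (3.06, 4.12 and 4.01 CPM) were highest in KO replicate 2. Folr1 (1.02, 0.824 and 0.710 CPM) was lowest in KO replicate 3, and Tmem212 (2.35, 2.68 and 2.79 CPM) in KO replicate 1. Without Ttr the WT sums were 22.7, 17.3 and 24.5 CPM. Of the 10 markers 9 had enough counts to be tested, with 0 past the threshold in edgeR. The part of this tissue in the reads of scarce channel genes was not tested. Kcne2, another choroid plexus gene, had 7, 2 and 5 reads in WT and 8, 5 and 7 in KO.

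**Figure D4:**
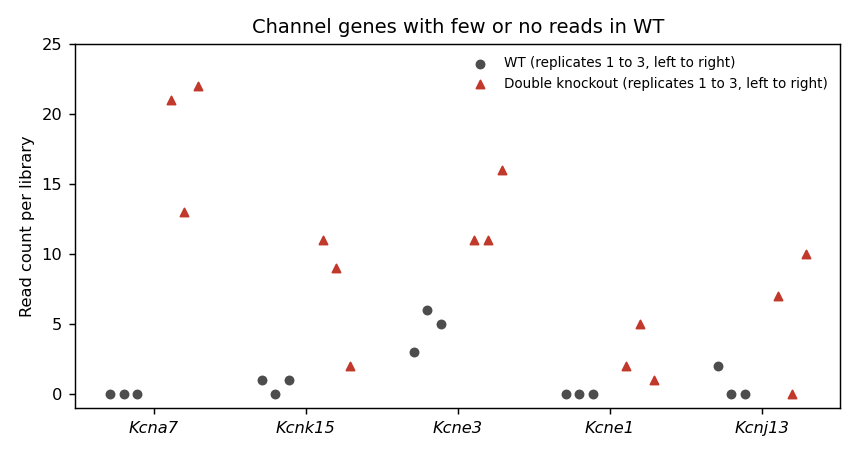
Read counts in each library (y axis) of 5 channel genes with few or no reads in WT (x axis). Dots are WT and triangles double knockout, with replicates 1 to 3 from left to right. Kcna7 has 13 to 22 reads in the double knockout and none in WT, and Kcnj13 has none in double knockout replicate 2.

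A list of 30 partners of potassium channels outside the Kcn symbols held accessory subunits, anchors and regulators. Of 29 tested 0 rose and 0 fell in edgeR, and 0 passed in DESeq2. At an unadjusted p under 0.05 were 4 (Lrrc55, Cntnap2, Dlg4 and Calm3), each with a lower mean in KO. These are 13.8% of the 29, below the 20.2% of all tested genes. The median log2 fold change was -0.08, with 24 of the 29 below 0. Over all tested genes the median was -0.01, with 8736 of 16861 below 0. Cntnap2 (Caspr2), which holds Kv1 channels beside nodes of Ranvier, had the smallest p, at 120.2, 126 and 109 CPM in WT and 104, 103 and 104 CPM in KO (log2 fold change -0.20, SE 0.0643, edgeR Benjamini-Hochberg adjusted p = 0.0942). Calm3, 1 of the 3 genes for calmodulin, the calcium sensor of SK and Kv7 channels, was 1288 to 1564 CPM in WT and 1203 to 1341 CPM in KO (log2 fold change -0.16, SE 0.0675). Calm3 passed in edgeR without WT replicate 2 (adjusted p = 0.0164) and after GC correction (0.0296). Without WT replicate 3, 2 partner genes passed, Cntnap2 among them (edgeR adjusted p = 0.0193). Dpp6 and Dpp10, the membrane partners of Kv4, were 453 to 464 CPM in WT and 454 to 463 CPM in KO, and 43.8 to 63.6 CPM in WT and 48.1 to 68.2 CPM in KO. Lrrc52 had 1 read in all and was not tested.

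Of properties the rule did not use, GC content, position and start sites were compared. The 11 that rose had a median GC content of 56.5%, the 4 that fell 52.4% and the other 65 tested 50.1%, beside 49.6% over all tested genes. In these libraries fold changes followed GC content: among all genes, the 10% richest in GC lay at a median of 0.06 on the log2 scale and the 10% poorest at -0.08. After a correction of each library for GC content 9 of the 11 rises and all 4 falls remained. Kcnab3 and Kcnj4 were the rises lost. The 11 lie on 7 chromosomes and the 4 on 3. Within 100 kb of the 15 lay 87 tested genes, of which 5 rose and 0 fell. This is 5.75% rising, near the 5.90% of all tested genes. The 5 were not spread evenly: 3 of the 12 tested genes near Kcnj14 rose, 1 of 12 near Kcnab3 and 1 of 15 near Kcnn1. The closest were next to Kcnj14: the noncoding Gm45441 at 6113 bases (log2 fold change 1.88, SE 0.130) and the NMDA receptor gene Grin2d at 7101 bases (log2 fold change 0.54). The third gene near Kcnj14 was Ccdc114 at 99290 bases (log2 fold change 0.57, SE 0.129).

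RefSeq start sites of GRCm38.p6 were found for 70 of the 94 genes, for 6 of the 11 that rose and 3 of the 4 that fell. In the 250 bases upstream, CG dinucleotides had a median of 10 over the 6 windows of genes that rose (range 1 to 35). Without Kcna7 it was 12 (3 to 35). The Kcna7 window lies within the GENCODE gene rather than before it. The same holds for the Kcnc4 window (12 CG dinucleotides) and for the Kcnn1 window with 8, and both are kept in these medians. The median was 8 over the 5 windows of genes that fell (3 to 14). It was 7 over all 95 windows of channel genes and 6 over all 32851 windows. REST, which recruits the CoREST complex that holds KDM1A, binds a long element with conserved left and right parts. The exact letters TCAGCACC of its left part, on either strand, were in 1 of the 95 windows (1.05%) and in 1.32% of all windows. The letters GGACAGC of its right part were in 10 of the 95 (10.5%) and in 5.28% of all windows, and among the changed genes in Kcnj4 and Kcnq5. These are matches of letters only.

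Calls differed in how far they held. Leaving out 1 library ended the call of 8 of the 15 genes at least once. The other 7, the rises of Kcns1, Kcna7, Kcng1, Kcnc4 and Kcnj14 and the falls of Kcnj9 and Kcnn1, also passed under other scaling, in DESeq2 and limma-voom, with a replicate block and after GC correction. An exception is the filter of at least 1 CPM in 3 libraries, which left Kcna7 untested. The count of rises fell to 6 when KO replicate 1 or KO replicate 3 was left out and to 7 when KO replicate 2 was. Falls numbered 2 without KO replicate 2.

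**Figure D5:**
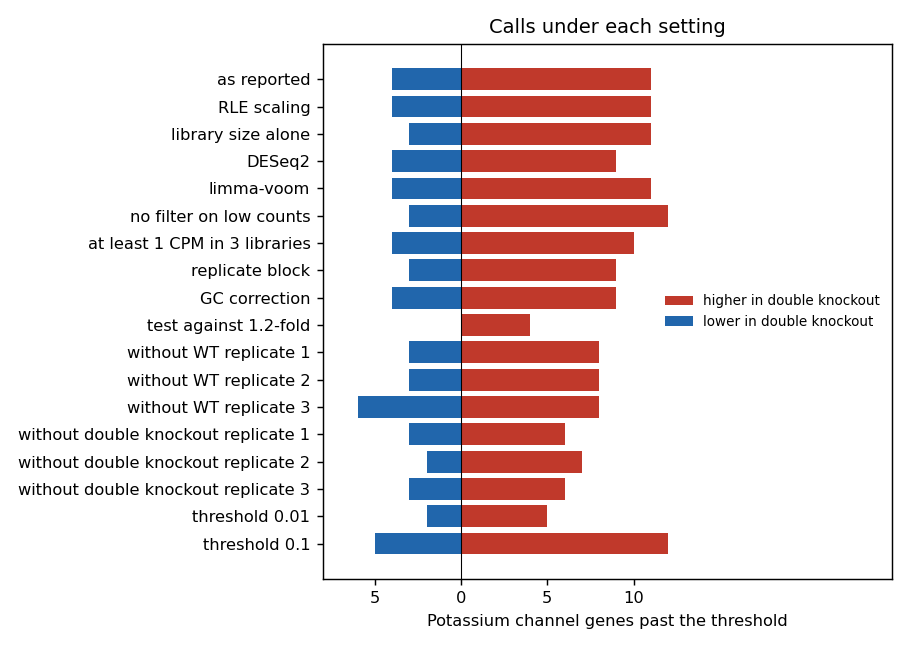
Number of potassium channel genes past the threshold (x axis) that were higher (red, to the right) or lower (blue, to the left) in the double knockout, under each setting (y axis). Rises outnumber falls in every setting shown, and rises range from 4 to 12.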

How the data were processed

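The deposited table holds raw whole-number counts per gene, 1 column per library, not normalized. The submitters' processing notes name cutadapt 1.18, HISAT2, HTSeq 0.11.1 and the build GRCm38 (mm10). The sources used here do not give the HISAT2 version, the annotation release or the strand setting. Identifiers were matched to symbols, positions and exons of GENCODE M21, which left 360 with 0.0512% of the counts unmatched.

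All genes were filtered with filterByExpr (minimum count 10, minimum total 15), scaled with TMM and tested with edgeR's quasi-likelihood test, group as the only term, with Benjamini-Hochberg adjustment over 16861 genes at 0.05. The SE is the log2 fold change over the square root of F. The edgeR, limma-voom and DESeq2 fits, with filterByExpr and group as the only term, were tested on simulated data. The other settings were not. The members and gene lists were chosen with earlier results of these data known. Named genes are all members past the threshold, 2 per family without one, the most abundant per family and 2 partners, with further members named by level or role. Some members are counted but not reported here by name. The GC correction is a robust loess per library (span 0.3). Software was R 4.3.3, edgeR 4.0.16, limma 3.58.1 and DESeq2 1.42.0.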

Additional observations from a re-analysis of the deposited data

How the results depend on the processing

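The counts of 11 rises and 4 falls stayed within 1.5 times in DESeq2, in limma-voom, under RLE or library-size scaling, both other filters, GC correction and an adjusted p of 0.1. A test against a 1.2-fold change left 4 rises and 0 falls, and an adjusted p of 0.01 left 5 rises and 2 falls. Leaving out 1 library gave 6 to 8 rises and 2 to 6 falls. With a replicate block there were 9 rises and 3 falls, without Kcnk9 (adjusted p = 0.0778), Kcnd1 (0.0575) and Kcnq5 (0.0717) in edgeR. Over all tested genes, deviations of same-numbered libraries from their group means correlated by 0.0046, -0.0092 and -0.0240. Values over all genes cannot show whether same-numbered libraries shared a batch that touched only some genes. The count of changed partner genes, 0 as reported, was 1 after GC correction (Calm3), 1 at an adjusted p of 0.1, and 0 to 2 on leaving out 1 library. Among 44 named genes 0 changed direction where a call was involved. The cause of these differences was not tested, beyond the stricter thresholds and the fewer libraries themselves. With 3 libraries per group and few reads for 21 genes under 1 CPM in WT, smaller changes in scarce channels were not detectable at this depth.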
